A study of Mus musculus with 8 samples.

Results

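Nuclear receptor genes encode transcription factors that share a DNA-binding domain and, in most members, a ligand-binding domain. The genes described are 40 nuclear hormone receptor genes chosen by symbol from a list without the thyroid hormone receptors. The rule uses no measured value, but the list was drawn up with earlier results of these data known. Of the 40, 38 had an estimated count in the deposited tables, which list 18533 gene symbols, and 29 passed the filter on low counts, as did 13535 genes in all. The samples were MASMCs (mouse aortic smooth muscle cells), primary cells from mouse aorta. The main methods name the thoracic aortas of male mice aged 4 to 6 weeks, with littermates compared, whereas the supplement and the legend for this experiment name the whole aorta. The extraction text in the labels covers ground aortic tissue and bone marrow-derived macrophages and does not mention smooth muscle cells, so the material extracted rests on the sample labels. There were 4 samples from WT mice and 4 from *Hint1*-/- mice, a knockout of the gene for the histidine triad nucleotide-binding protein HINT1, and all cells of both genotypes had received 20 ng/mL of PDGF-BB over 24 hours. PDGF-BB is a growth factor that drives smooth muscle cells away from the contractile state. No unexposed cells were analysed here. The labels do not say whether the samples of a genotype came from separate mice, so p-values measure only the spread between these samples.

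Many nuclear receptors wait for a small lipophilic ligand. Steroid receptors such as the glucocorticoid, estrogen, and progesterone receptors are held by HSP90 chaperones until hormone binds, whereas the retinoic acid receptors, PPARs, LXRs, and vitamin D receptor sit on DNA with a retinoid X receptor (RXR) as partner and exchange corepressors for coactivators when ligand arrives. Others have no known natural hormone or act largely through their own abundance, among them the NR4A receptors, which are immediate early genes, the COUP-TFs (NR2F), and the REV-ERBs and RORs, which oppose each other at the same response elements of clock genes. In the vessel wall these receptors are known for roles in lipid handling, inflammation, and smooth muscle growth.

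Estimated counts summed to 20778077 to 20888041 per sample. *Hint1* itself had 2272 to 2364 counts in WT and 713 to 778 in *Hint1*-/- samples, so 32.1% of its WT level remained under this counting, and all 4 *Hint1*-/- samples lay below all 4 WT samples. Markers of other cells were present and moved with genotype. Summed over 6 macrophage markers, of which 5 fell and 1 did not pass, the level was 2072 to 2380 CPM (counts scaled to library size) in WT and 1700 to 1817 CPM in *Hint1*-/- samples. *Lyz2*, one of them, had 19497 to 27662 counts over the 8 samples. Of 6 Schwann cell markers, 5 fell, and the sum went from 41.3 to 47.7 CPM in WT to 9.14 to 11.6 CPM. Of 6 fibroblast markers, 3 rose and 2 fell, and the sum was 4979 to 5466 CPM in WT and 5515 to 5906 CPM in *Hint1*-/- samples. Of 6 smooth muscle markers, 3 fell and 1 rose, and *Myh11*, a defining one, had 406 to 456 counts in WT and 136 to 152 in *Hint1*-/- samples. None of the 5 tested endothelial markers passed with either edgeR or DESeq2 (1 had an unadjusted p under 0.05). Of the adipocyte markers, *Adipoq*, *Plin1*, *Cidec*, and *Retn* had 0 to 4 counts in every sample, and *Fabp4* (994 to 1205 counts), which macrophages also express, did not pass. The part of these cells in the results below was not tested, and in bulk samples fewer cells of a type cannot be told apart from less RNA per cell.

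Of the 29 tested receptor genes, 4 were higher in *Hint1*-/- MASMCs, namely *Esr1*, *Pgr*, *Rora*, and *Nr2f2*. *Nr4a1* and *Nr3c1* were lower, and 23 did not pass (edgeR quasi-likelihood test, Benjamini-Hochberg adjusted p under 0.05 over all genes tested). The 4 higher genes are 13.8% of those tested, beside 11.2% among all genes, and the 2 lower ones are 6.90%, beside 10.2% among all genes. These shares are near the background and say nothing particular about receptor genes as a group. None of the 29 changed by more than 1.5-fold with an adjusted p under 0.05, by edgeR or by DESeq2, where 2.83% of all genes did. Only *Nr3c2* exceeded that fold at an unadjusted p under 0.05. The 2 genotypes did not overlap in 6 of the 29 (20.7%, beside 23.0% among all genes), and these were the called genes other than *Nr3c1*, with *Rara* in its place. The median log2 fold change was 0.05 over the 29 and 0.0003 over all genes tested, and 20 of the 29 were above 0.

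**Figure D1:**
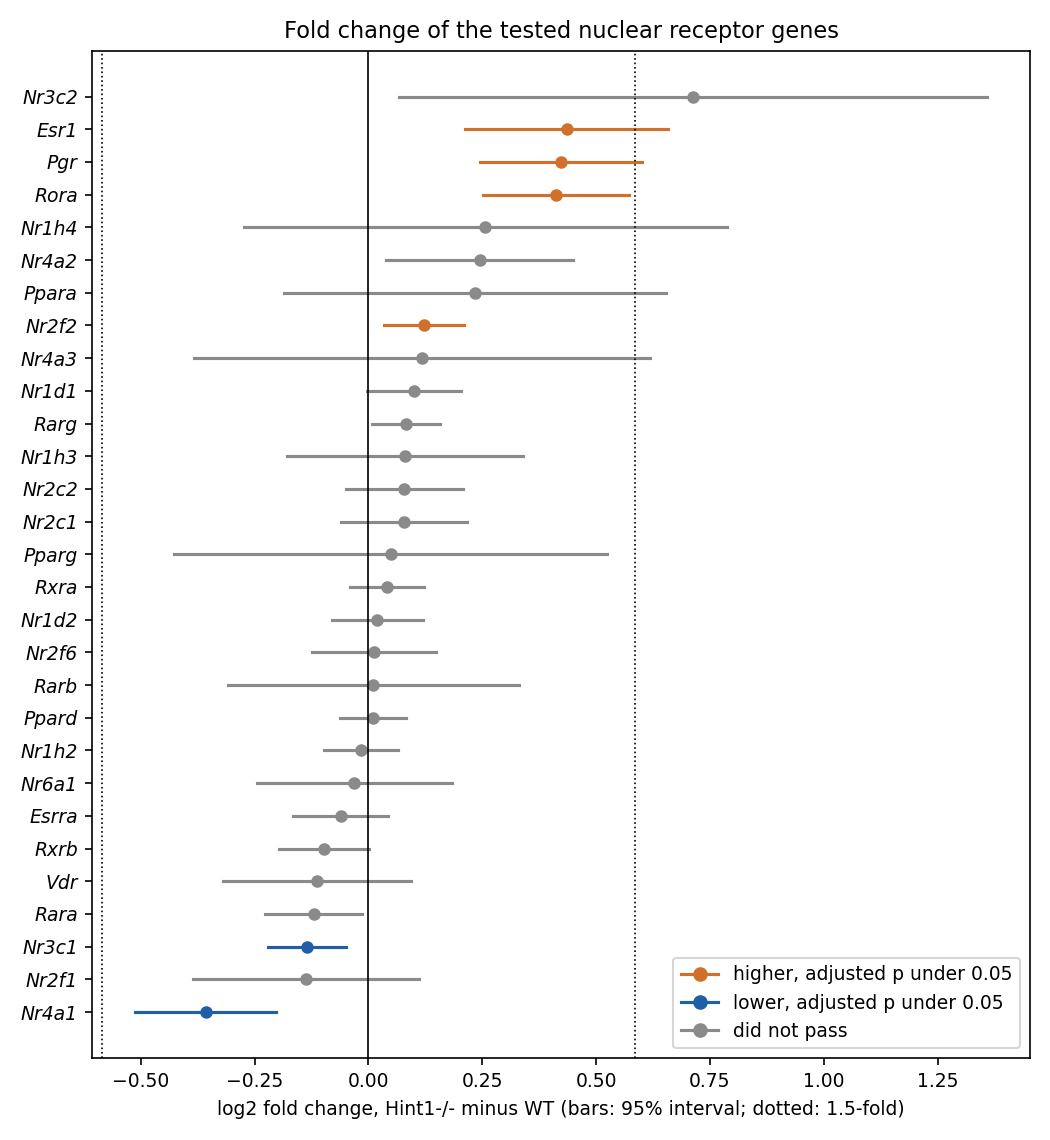
Log2 fold change (*Hint1*-/- minus WT, horizontal axis) of the 29 tested nuclear receptor genes, 1 row a gene, with points for the edgeR estimate and bars for its 95% interval. Orange points passed as higher (4), blue as lower (2), and gray did not pass (23). *Nr3c2* is the one estimate beyond the dotted lines at 1.5-fold, and its interval reaches from 0.07 to 1.36.

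The sequences upstream of 3 genes whose call held in each of the 18 alternatives fitted to every receptor gene (*Nr4a1*, *Rora*, and *Pgr*) are shown, so that the receptors that moved can be set beside the DNA in front of them. They are the 250 bases before the RefSeq start on GRCm38.p6 (mm10), read in the direction of transcription, and none overlaps an annotated exon. The windows for *Nr2f2* and *Esr1* overlap exons and are not printed. Capitals mark the matches to 5 motifs, searched on both strands. The motifs chosen at the outset were AP-2 (GCCNNNGGC), the E-box (CACGTG), the cAMP response element (TGACGTCA), and the nuclear receptor half-site (AGGTCA). The fifth, a shorter CRE-like element (TGCGTCA), was added after the *Nr4a1* window had been read, so its count there is a description.
*Nr4a1* upstream, chr15:101266596-101266845, + strand: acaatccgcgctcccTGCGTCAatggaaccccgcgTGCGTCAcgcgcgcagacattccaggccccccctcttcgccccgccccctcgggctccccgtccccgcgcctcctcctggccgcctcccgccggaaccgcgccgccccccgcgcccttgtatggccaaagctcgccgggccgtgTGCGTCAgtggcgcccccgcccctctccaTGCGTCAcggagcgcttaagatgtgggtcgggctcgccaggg
*Rora* upstream, chr9:68653536-68653785, + strand: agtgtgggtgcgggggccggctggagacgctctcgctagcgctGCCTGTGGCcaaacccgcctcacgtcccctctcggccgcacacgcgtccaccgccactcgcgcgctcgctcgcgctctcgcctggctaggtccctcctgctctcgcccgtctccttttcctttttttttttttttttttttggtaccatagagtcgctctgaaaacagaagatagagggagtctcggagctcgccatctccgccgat
*Pgr* upstream, chr9:8899583-8899832, + strand: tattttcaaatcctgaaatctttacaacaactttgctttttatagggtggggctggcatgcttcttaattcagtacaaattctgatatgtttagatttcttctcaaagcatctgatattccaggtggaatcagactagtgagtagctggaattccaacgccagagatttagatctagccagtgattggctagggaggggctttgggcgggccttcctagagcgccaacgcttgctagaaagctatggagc

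The *Nr4a1* window holds 4 copies of TGCGTCA, whose first bases lie 235, 215, 71, and 42 bases before the start. Among 32851 promoters of the same length, 1.75% hold at least 1 copy and 1 promoter, that of *Nr4a1*, holds 4 or more. Both the motif and the cutoff of 4 were taken from the *Nr4a1* window. Its place among all promoters is therefore a description and not a test. The window lies inside the span that GENCODE gives the gene, since that annotation has *Nr4a1* begin farther upstream. In the *Rora* window there is 1 match to AP-2, which starts 207 bases before the start. The *Esr1* window at chr10:4611739-4611988, not printed, also holds an AP-2 match, 170 bases before its start. AP-2 is found in 13.7% of all promoters and in 11 of the 40 promoters matched to the tested receptor genes (27.5%). These 40 are RefSeq starts, with more than 1 for some genes such as *Esr1*, and not the 40 listed genes. The background was not matched for base content, and the difference was not tested. AP-2 was searched because the study concerns TFAP2A. The other 3 motifs are in 6.02% (E-box), 1.55% (cAMP response element), and 14.0% (half-site) of all promoters, and in 1, 0, and 7 of the 40 receptor promoters. The *Pgr* window matches none of the 5, which says only that these letters are not in those 250 bases.

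Expression of the receptors spanned a wide range. Levels between genes are given per length, as CPM per kb of merged exon (n = 4 for each genotype). In WT cells, 8 receptor genes were above 10, 11 were between 1 and 10, and 10 were below 1. The top 3 were *Nr1d1* (REV-ERBα, a heme-binding clock repressor) at 29.7 ± 2.56 (SD), *Rarg* (retinoic acid receptor γ) at 26.4 ± 0.930, and *Nr1h2* (LXRβ, an oxysterol receptor) at 24.2 ± 1.12, and the WT samples of each overlapped with those of the next. *Nr3c1* (glucocorticoid receptor) followed at 18.2 ± 0.833, below every *Nr1h2* sample, then *Nr2f6* at 17.5 ± 1.70, *Ppard* at 13.2 ± 0.278, *Rxra* at 11.1 ± 0.486, and *Rxrb* at 10.3 ± 0.487. Of the 28 neighboring pairs in the order, 15 overlapped in WT and 13 did not. Taking the longest transcript as the length put *Nr1h2* first at 40.6, *Rarg* at 38.1, and *Nr1d1* at 33.6, so the order at the top depends on the length used. All 38 receptor genes together took 908 to 949 CPM in WT and 938 to 961 CPM in *Hint1*-/- samples.

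**Figure D2:**
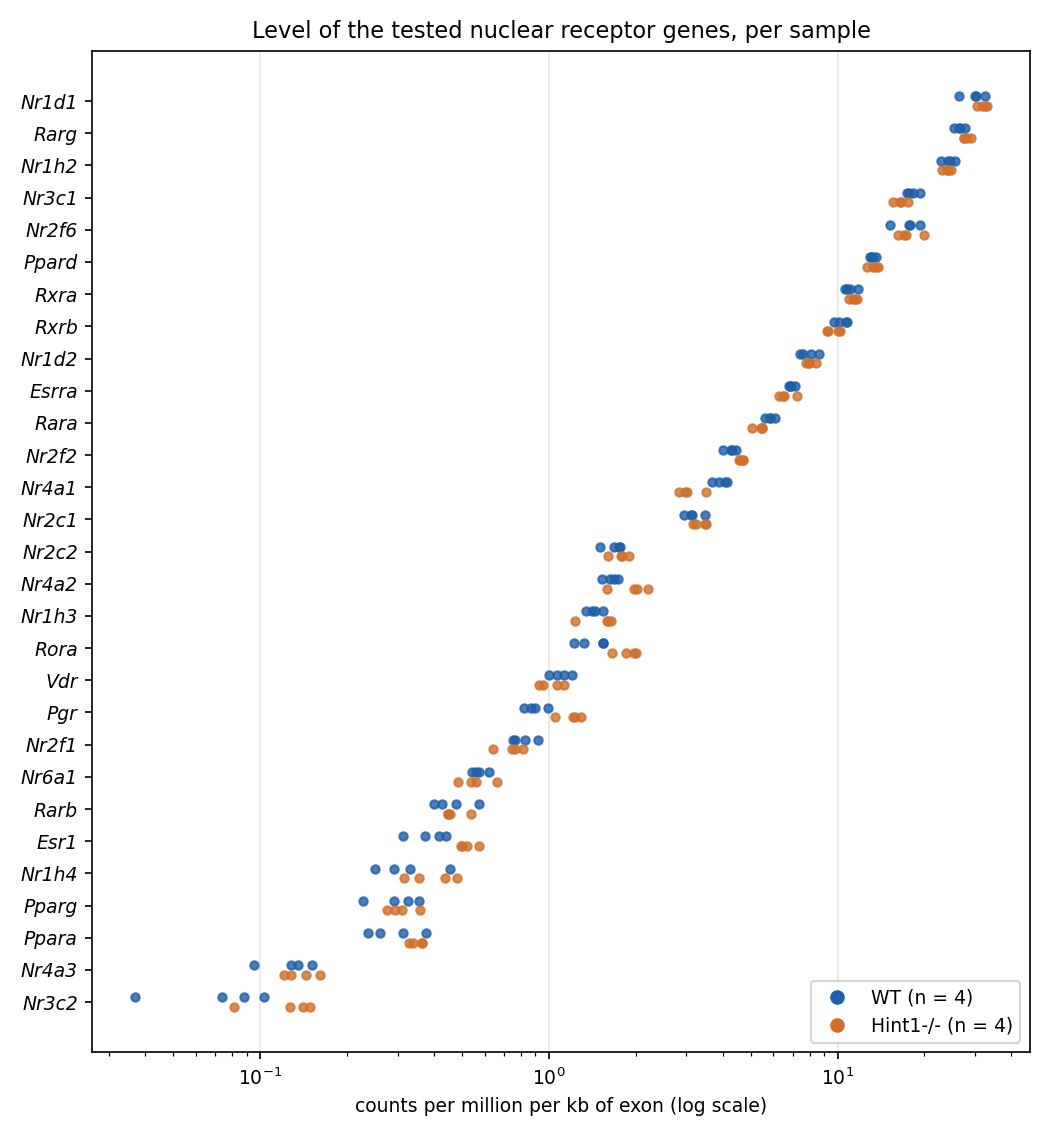
Level of each of the 29 tested nuclear receptor genes in every sample, in CPM per kb of exon on a log axis, ordered by the WT mean, with WT samples in blue and *Hint1*-/- samples in orange (n = 4 each). *Nr1d1*, *Rarg*, and *Nr1h2* lead, and *Nr3c2* is lowest with a WT range of 0.037 to 0.103.

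Among the steroid receptor genes, those of estrogen receptor α and the progesterone receptor were higher and that of the glucocorticoid receptor was slightly lower. *Esr1*, which encodes estrogen receptor α, had 106, 120, 126, and 89 counts in WT replicates 1 to 4 and 162, 140, 142, and 148 in *Hint1*-/- replicates 1 to 4. The 4 *Hint1*-/- values were all higher than the highest WT value. Expression was 35.2% higher (log2 fold change 0.44, SE 0.106, and an adjusted p of 0.0060 by edgeR). *Pgr*, the progesterone receptor gene, had 146, 178, 155, and 160 counts in WT and 187, 214, 230, and 219 in *Hint1*-/- samples. Its groups did not overlap either, although WT replicate 2 and *Hint1*-/- replicate 1 were close. It was 34.0% higher (log2 fold change 0.42, SE 0.0846, adjusted p = 0.00126 from edgeR). *Pgr* is a known estrogen receptor target in reproductive tissue. *Esr1* spans chr10:4611593-5005614 and *Pgr* chr9:8899833-8968611 in GENCODE M21 (mm10).

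*Nr3c1* had 2836, 3105, 2941, and 2783 counts in WT and 2627, 2643, 2481, and 2794 in *Hint1*-/- samples. *Hint1*-/- replicate 4 lay above WT replicate 4, so the groups overlapped, and the difference was −8.90% (log2 fold change −0.13, SE 0.0407, adjusted p = 0.0235 from edgeR). The two-sided exact permutation test of this gene alone gave p = 0.0571, where 0.0286 is the smallest that the 70 assignments of 4 samples against 4 allow. The call was also lost without any one of WT replicates 2 and 3 and *Hint1*-/- replicates 1, 2, and 3, with adjusted p up to 0.0864 from edgeR. *Nr3c2*, the mineralocorticoid receptor gene, had 10, 12, 14, and 5 counts in WT and 20, 17, 11, and 19 in *Hint1*-/- samples. These ranges overlapped and the estimate of 0.71 (SE 0.308, adjusted p = 0.111 from edgeR) did not pass. *Esr2* (estrogen receptor β) had 5 to 13 counts and was not tested. Per length, *Nr3c1* made up 99.6% of the *Nr3c1* and *Nr3c2* transcripts in WT, and *Esr1* 77.9% (69.5% to 86.1%) of the estrogen receptor transcripts. The *Esr1* share depends on the length used. In WT, *Esr1* was at 0.386 CPM per kb of merged exon and 0.832 per kb of longest transcript, while *Esr2* was at 0.11 by both.

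**Figure D3:**
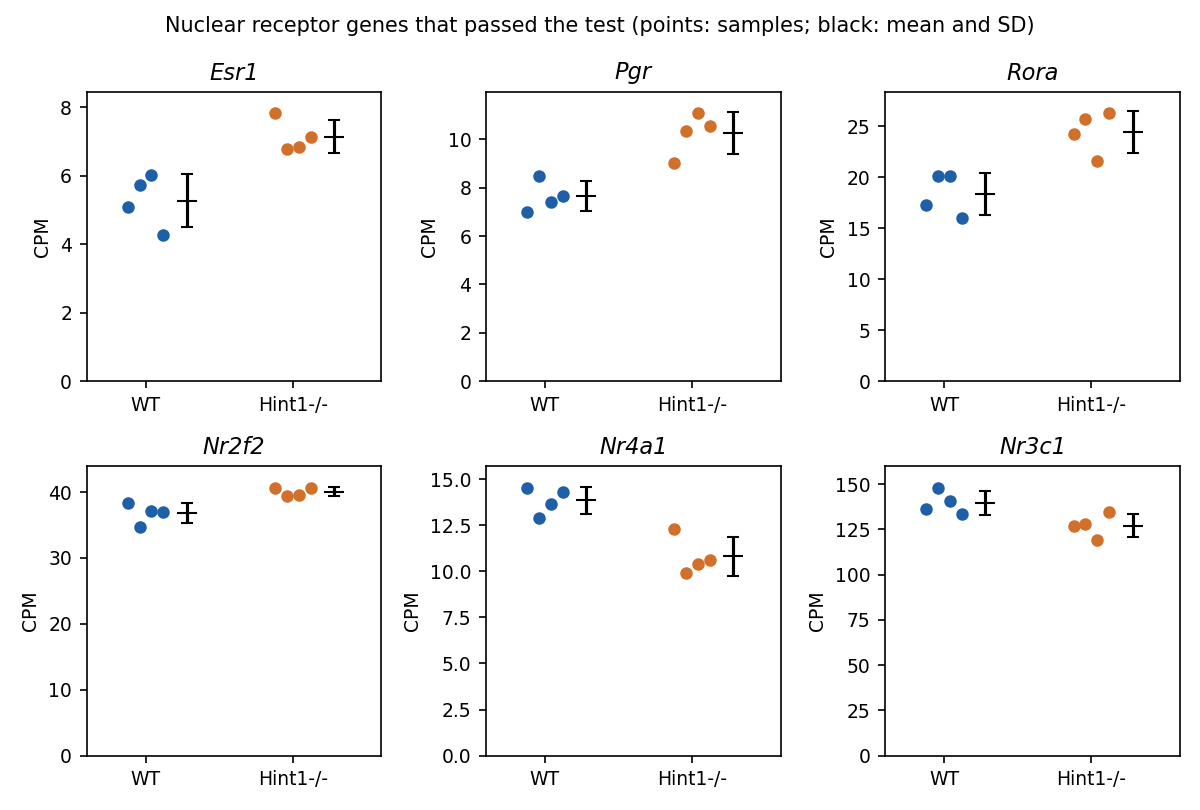
CPM in each sample (points) with the mean and SD (black, n = 4) for the 6 receptor genes that passed the test, WT in blue and *Hint1*-/- in orange, each axis starting at 0. In *Esr1*, *Pgr*, *Rora*, *Nr2f2*, and *Nr4a1* the genotypes do not overlap, whereas in *Nr3c1* they do.

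The orphan and clock receptors held the other calls. *Rora*, which encodes RORα, an activator at the elements where REV-ERBs repress, had 360, 422, 421, and 334 counts in WT and 503, 532, 449, and 545 in *Hint1*-/- samples. No sample of one genotype reached the other, the nearest being WT replicate 2 and *Hint1*-/- replicate 3. The level was 33.0% higher (log2 fold change 0.41, SE 0.0763, adjusted p = 0.000622 from edgeR), at chr9:68653786-69388246. *Rorb* had 4 to 8 counts in WT and 13, 15, 12, and 5 in *Hint1*-/- samples, too few to be tested. The REV-ERB genes did not pass. *Nr1d1* had 1687 to 2084 counts in WT and 1935 to 2102 in *Hint1*-/- samples (log2 fold change 0.10, 95% interval −0.004 to 0.20), and it passed only without WT replicate 1 (log2 fold change 0.15, adjusted p = 0.0408 from edgeR). For *Nr1d2* the estimate was 0.02 (95% interval −0.08 to 0.12). The exons of *Nr1d1* overlap those of *Thra* on the other strand over 8.55% of their length.

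*Nr4a1* (NUR77), an immediate early gene that growth factors induce, fell. It had 303, 271, 285, and 298 counts in WT and 255, 205, 216, and 220 in *Hint1*-/- samples. Each *Hint1*-/- sample was below each WT sample, and *Hint1*-/- replicate 1 stood nearest to WT. At chr15:101254269-101274795, the gene fell by 22.0% (log2 fold change −0.36, SE 0.0738, adjusted p = 0.00161 from edgeR). *Nr4a2* (NURR1) had 130, 143, 138, and 147 counts in WT and 170, 186, 134, and 166 in *Hint1*-/- samples. Of the *Hint1*-/- samples, 3 were above all WT samples and replicate 3 was not, and the estimate of 0.24 (SE 0.0981, adjusted p = 0.0868 from edgeR) did not pass. Without that replicate it passed, at a log2 fold change of 0.33 and an adjusted p of 0.0138. *Nr4a3* (NOR1) had 12 to 20 counts and an estimate of 0.12 (95% interval −0.38 to 0.62).

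In the NR4A subfamily, the shares of *Nr4a1* and *Nr4a2* did not overlap between the genotypes. Among the subfamilies examined, only the RARs also had members with such shares. Per length, *Nr4a1* held 67.5% to 71.0% of the transcripts of the 3 genes in WT and 54.7% to 63.1% in *Hint1*-/- samples. *Nr4a2* held 26.4% to 30.8% in WT and 33.8% to 42.9% in *Hint1*-/- samples. *Nr4a2* did not pass on its own. These shares are a description and were not tested.

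**Figure D4:**
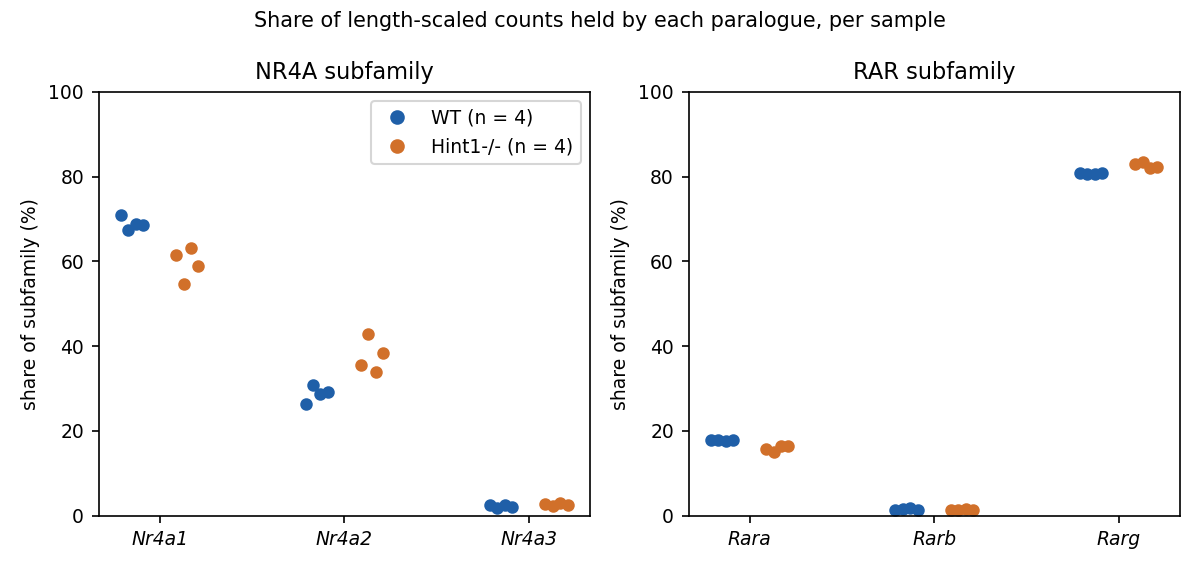
Share of each paralogue (%) in the length-scaled counts of the NR4A (left) and RAR (right) subfamilies in every sample, WT in blue and *Hint1*-/- in orange (n = 4 each). *Nr4a1* falls from 69.0% to 59.6% on average and *Nr4a2* goes from 28.8% to 37.7%, while *Rara* goes from 17.8% to 15.9%.

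*Nr2f2* (chr7:70351944-70366735), which encodes COUP-TFII, a regulator of vein identity and mesenchymal fate, had 799, 729, 777, and 772 counts in WT and 843, 814, 824, and 842 in *Hint1*-/- samples. The groups did not overlap, and the level was 8.82% higher (log2 fold change 0.12, SE 0.0415, adjusted p = 0.0430 from edgeR). This call did not hold in 11 of 18 alternatives, among them DESeq2 (adjusted p = 0.141) and leaving out any single sample other than WT replicate 1. Of the other NR2F genes, *Nr2f1* (68 to 98 counts) had an estimate of −0.14 and *Nr2f6* (952 to 1240 counts) one of 0.01, and neither passed. *Nr2f6* held 77.4% of the subfamily per length in WT, but 54.4% of its exon length overlaps *Ocel1* on the opposite strand and the strand used in counting is not given in the sources used here. The testicular receptors *Nr2c1* and *Nr2c2* had estimates of 0.08 and 0.08. *Nr2c1* held 65.4% per merged exon and 54.4% per longest transcript, but 36.8% in counts without length. Of the *Nr2c2* exon length, 30.7% overlaps *Mrps25* on the opposite strand. *Nr6a1* (germ cell nuclear factor) had 109 to 149 counts and an estimate of −0.03. Among the estrogen-related receptors, which drive mitochondrial genes, *Esrra* made up 99.7% in WT and did not pass (log2 fold change −0.06, 95% interval −0.17 to 0.04), and *Esrrb* and *Esrrg* had 0 to 2 and 0 to 6 counts.

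No gene of the RAR, PPAR, LXR, FXR, or vitamin D receptor groups passed, nor did an RXR gene. *Rara* (retinoic acid receptor α) had 552, 512, 533, and 531 counts in WT and 496, 458, 497, and 493 in *Hint1*-/- samples, with *Hint1*-/- replicate 2 lowest. The groups did not overlap, but the estimate of −0.12 (SE 0.0507, adjusted p = 0.106 from edgeR) missed the threshold. *Rarg* had 2261 to 2448 counts in WT and 2423 to 2562 in *Hint1*-/- samples, with an estimate of 0.08 and the same adjusted p of 0.106. *Rarg* held 80.5% to 80.9% of the RAR transcripts in WT and 82.1% to 83.6% in *Hint1*-/- samples, and *Rara* held 17.7% to 17.9% and 15.1% to 16.3%. *Rarb* had 44 to 63 counts and an estimate of 0.01, and 34.1% of its exon length overlaps *Top2b* on the opposite strand.

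For the well-counted members of this group, the intervals were narrow. *Ppard* (PPARδ, a fatty acid receptor) had 1977 to 2139 counts over the 8 samples, an estimate of 0.01, and a 95% interval of −0.06 to 0.08. It made up 95.7% of the PPAR transcripts in WT, since *Ppara* had 19 to 30 counts and *Pparg*, the adipocyte and macrophage receptor, 14 to 22. *Nr1h2* had an estimate of −0.02 (95% interval −0.10 to 0.06) and made up 94.4% of the LXR transcripts. Its paralogue *Nr1h3* (LXRα, prominent in macrophages) had 64 to 86 counts and an estimate of 0.08. *Rxra* had an estimate of 0.04 (95% interval −0.04 to 0.12) and *Rxrb* of −0.10 (95% interval −0.20 to 0.0009). They held nearly equal shares, *Rxra* 51.6% and *Rxrb* 48.2% in WT, an order that turned with the longest transcript as the length (44.0% and 55.8%). *Vdr*, the vitamin D receptor gene, had 109 to 142 counts and an estimate of −0.11 (95% interval −0.32 to 0.09), and *Nr1h4*, the bile acid receptor FXR, had 12 to 23 counts and one of 0.26 (95% interval −0.27 to 0.79).

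Several receptors better known from other tissues were at or near 0. *Nr1i2* (PXR) and *Nr5a2* (LRH-1) had 0 or 1 count in each sample, *Nr1i3* (CAR) 0 to 6, *Rxrg* 0 to 6, and *Nr0b2* (SHP) 3 to 7, all too few to be tested. The exons of *Nr1i3* overlap those of *Tomm40l* over 74.9% of their length. *Nr0b1* (DAX1) and *Nr5a1* (SF-1) have no entry in the tables used.

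Genes that make or carry the ligands moved in both directions. In the list of retinoid genes, 4 of 10 tested were higher and 3 lower, with a median log2 fold change of −0.05. The counts of each list here and in what follows stand beside 11.2% higher and 10.2% lower among all genes, and the medians beside 0.0003. *Rdh10*, which oxidizes retinol, had 342 to 397 counts in WT and 597 to 683 in *Hint1*-/- samples (log2 fold change 0.77, SE 0.0602). *Aldh1a3*, which makes retinoic acid from retinal, went the other way, from 329 to 379 counts to 158 to 215 (log2 fold change −0.95, SE 0.0846). A second retinal dehydrogenase gene, *Aldh1a2*, had 7283 to 7770 counts in WT and 9246 to 9733 in *Hint1*-/- samples (0.37, SE 0.0328). *Rbp4*, a retinol carrier gene (10 to 25 counts in WT, 28 to 40 in *Hint1*-/- samples), was also higher, and *Dhrs3* was lower. *Crabp1* was lower by edgeR (−0.55), with overlapping genotypes, but not by DESeq2 (adjusted p = 0.0613), which left 4 higher and 2 lower. *Rdh10*, *Aldh1a3*, and *Rbp4* were past the 1.5-fold limit.

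Among steroid and vitamin D genes, 2 of 10 were higher and 2 lower, with a median of −0.03. *Hsd11b1*, whose enzyme regenerates active glucocorticoid from its inert 11-keto form, had 479 to 527 counts in WT and 852 to 1009 in *Hint1*-/- samples (log2 fold change 0.92, SE 0.0540), 89.3% higher. *Star*, which delivers cholesterol to mitochondria, had 77 to 106 counts in WT and 45 to 66 in *Hint1*-/- samples (log2 fold change −0.77, SE 0.150). *Stard3* was lower (−0.30). *Srd5a1* was higher by edgeR (0.37) but not by DESeq2 (adjusted p = 0.0724), which left 1 higher and 2 lower.

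Glucocorticoid receptor target genes were, of the 12 lists, the one with the most calls in one direction. Of 12 tested, 6 were higher and 0 lower, by edgeR and by DESeq2, and the median log2 fold change was 0.17. *Mt1*, a metallothionein gene, had 5931 to 7532 counts in WT and 9467 to 11083 in *Hint1*-/- samples (log2 fold change 0.64, SE 0.0602). *Cebpd*, a transcription factor gene, had 3010 to 3101 counts in WT and 4144 to 4525 in *Hint1*-/- samples (0.50, SE 0.0336). *Sgk1* (0.55), *Mt2* (0.52), *Errfi1* (0.44), and *Klf9* (0.22) were the other 4. Commonly used glucocorticoid reporters in the same list did not pass, with estimates of −0.06 for *Fkbp5*, 0.08 for *Tsc22d3*, 0.02 for *Per1*, and −0.04 for *Dusp1*. The metallothioneins also respond to metals, and *Sgk1* and *Errfi1* to growth factors. What raised the genes of this list was not tested.

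The targets of the lipid receptors were split. Of 8 LXR target genes, 2 were higher and 2 lower, with a median log2 fold change of 0.01. *Abcg1*, a cholesterol exporter gene, had 627 to 755 counts in WT and 340 to 397 in *Hint1*-/- samples (log2 fold change −0.88, SE 0.0638), while its partner *Abca1* did not pass (−0.05). *Scd1*, a fatty acid desaturase gene, went from 6104 to 7642 counts to 8607 to 9941 (0.47, SE 0.0583). *Apoe* was higher (0.55) and *Pltp* lower (−0.17). *Abcg1* and *Apoe*, which moved in opposite directions, are also well expressed in macrophages, of whose 6 markers 5 were lower. The part of macrophages in these changes was not tested. Of 14 PPAR target genes, 2 were higher, among them *Angptl4* (0.43), and 2 lower (*Ucp2*, −0.28, and *Fabp5*, −0.18), with a median of −0.03. Of 6 RAR target genes, 1 was higher and 2, *Tgm2* (−0.26) and *Dhrs3* (−0.19), were lower, with a median of −0.12.

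**Figure D5:**
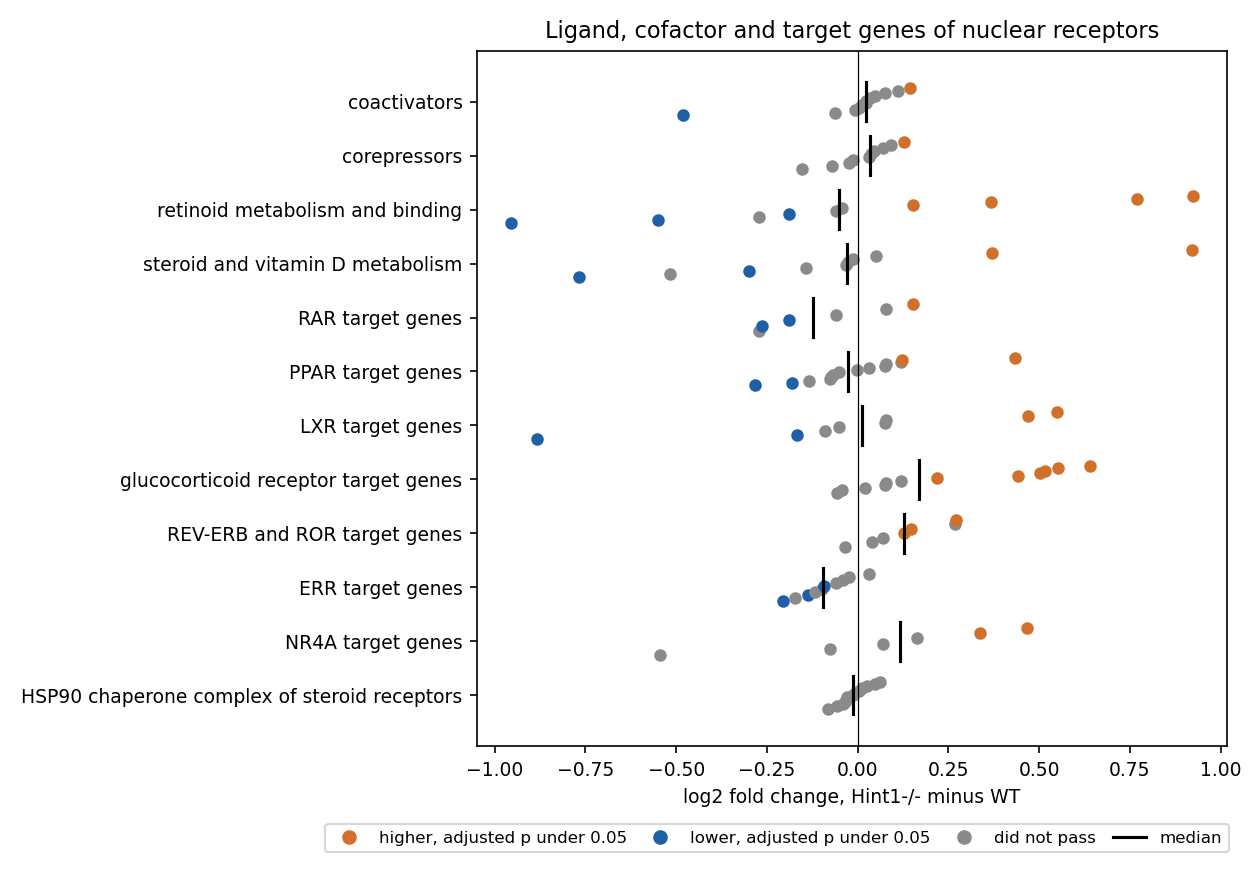
Log2 fold change (*Hint1*-/- minus WT, horizontal axis) of each tested gene in 12 lists of ligand, cofactor, chaperone, and target genes, with list medians as black bars. Orange points passed as higher, blue as lower, and gray did not pass. The glucocorticoid receptor targets hold 6 higher and 0 lower genes, and the HSP90 complex has none of either.

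For the orphan receptors, 3 of 7 REV-ERB and ROR target genes were higher and 0 lower, with a median log2 fold change of 0.13. *Dbp*, a clock output gene, had 261 to 277 counts in WT and 318 to 322 in *Hint1*-/- samples (log2 fold change 0.27, SE 0.0575), and *Clock* (0.15), higher by edgeR but not by DESeq2 (adjusted p = 0.0655), overlapped between the genotypes. *Arntl* did not pass (−0.04). Of 6 NR4A target genes, 2 were higher, *Pfkfb3* (0.47), a glycolytic regulator, and *Fdps* (0.34), of the mevalonate pathway, and the median was 0.12. Of 10 ERR target genes, 3 were lower and 0 higher, all by less than 1.5-fold, namely *Ckb* (−0.21), *Cycs* (−0.14), and *Atp5b* (−0.09), with a median of −0.09. DESeq2 gave 2 higher REV-ERB and ROR targets and the same counts for the other lists in this paragraph.

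The machinery shared by many receptors showed few calls, with median log2 fold changes of 0.02 for coactivators, 0.03 for corepressors, and −0.01 for the HSP90 complex. Of 12 coactivator genes, *Ncoa6* was higher (0.15), and *Ppargc1b* (PGC-1β, a coactivator of the ERRs and PPARs) was lower, with 135 to 153 counts in WT and 92 to 114 in *Hint1*-/- samples (log2 fold change −0.48, SE 0.0949). *Ppargc1a* had 1 to 4 counts. Of 10 corepressor genes, *Tbl1xr1* was higher (0.13) by edgeR and no gene passed by DESeq2. *Gps2* did not pass (−0.15), nor did *Ncor1* (0.09). Of 13 genes of the HSP90 complex that holds steroid receptors, 0 passed by edgeR or DESeq2 and 1, *Ppid* (−0.08), had an unadjusted p under 0.05. The estimate for *Hsp90aa1* was 0.06. Some genes stand in more than 1 list (*Fkbp5*, *Pdk4*, *Acadm*, *Dhrs3*, *Cyp26b1*, and *Crabp2* among them), so the lists are not separate counts.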

How the data were processed

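RNA from 8 samples labelled MASMCs was sequenced, 4 WT and 4 *Hint1*-/- as the labels give the genotype. The study's methods name HISAT2 and mm10, the submitters' processing notes name Bowtie2, RSEM 1.3.1, and DESeq2 1.4.5, and the gene annotation is not given in the sources used here. The tables the authors deposited hold 1 estimated count per gene symbol and library, not normalized. These were rounded to whole numbers. No molecular identifiers are described, so counting error is only part of the error.

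After filterByExpr and TMM scaling in edgeR, genotype was tested without further terms by the quasi-likelihood functions glmQLFit and glmQLFTest, with two-sided Benjamini-Hochberg adjustment over 13535 genes. A gene passed at an adjusted p under 0.05, and the fold limit was 1.5. The SE is the log2 fold change divided by the square root of F. Python 3.11.15 and R 4.3.3 were used with DESeq2 1.42.0, limma 3.58.1, and edgeR 4.0.16, and the test was checked on simulated data. Positions and lengths came from GENCODE M21 and upstream sequence from RefSeq.

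The receptor genes and all lists were chosen with earlier results of these data known. By rule, every receptor gene is accounted for, and from each list the genes past both limits are named, filled to 2 by the smallest adjusted p. Further list genes were named after their values were seen, and the results of some list genes are not reported here. Shares of the ROR and ER subfamilies, the CRE-like motif, the removal of length and GC trends (loess span 0.3), and the longest transcript as length were also added after seeing the data. Other alternatives were other normalizations, filters, unrounded counts, DESeq2, limma-voom, glmTreat, a replicate block, and each sample left out.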

Additional observations from a re-analysis of the deposited data

Results flagged for a closer look

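In 58 groups of 4 samples (29 genes in 2 genotypes), 3 had a sample whose gap to the nearest other, divided by the range of the group, was above Dixon's 95% critical value for 4 samples, where chance gives about 2.9. *Hint1*-/- replicate 2 was low in *Nr1h3* (64 counts, the others 83 to 86, ratio 0.868). The same sample was low in *Rara* (458 counts, the others 493 to 497, ratio 0.904). *Hint1*-/- replicate 3 was high in *Rarb* (59 counts, the others 49 to 50, ratio 0.897). None of these genes passed the test between genotypes, with all samples or without the sample named.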

How the results depend on the processing

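The calls of *Esr1*, *Pgr*, *Rora*, and *Nr4a1* held in all 18 alternatives fitted to each receptor gene. Against a fold of 1.2 rather than no change (glmTreat), 0 receptor genes passed. *Nr2f2* lost its call in 11 (adjusted p up to 0.141) and *Nr3c1* in 5 (up to 0.0864). *Nr1d1* passed without WT replicate 1 (adjusted p = 0.0408), *Nr4a2* without *Hint1*-/- replicate 3 (0.0138), and *Rarg* with length and GC trends removed (0.0335). The causes were not tested. Leaving out 1 sample at a time, 4 to 7 receptor genes passed, of which 3 to 5 were higher and 1 to 2 lower, and 0 passed the fold limit. In the same fits, 16.5% to 21.4% of all genes tested passed. The count of lower receptor genes was 1 without WT replicate 2 or 3, or without *Hint1*-/- replicate 1, 2, or 3. No fold change that passed changed sign.

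Samples that share a replicate number did not deviate together (correlations −0.045, 0.0814, 0.00875, and 0.0230), and best matched their own number for 2 of the 4 numbers. With the replicate block, 6 receptor genes passed and 3082 genes in all, against 2907 without it. Depth limits the rarer receptors, since the 95% intervals of *Nr3c2*, *Nr1h4*, *Ppara*, and *Nr4a3*, at 5 to 30 counts, reach past 1.5-fold, as do those of *Esr1* and *Pgr*.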
